A study of Acartia tonsa with 26 samples.

Results

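The comparison set prehatch nauplii of the calanoid copepod Acartia tonsa, 42 h into development, against eggs of the 4-16 cell stage at 3 h. It thus sets the end of embryonic development against its start. The members are the 4761 genes, of 9502 in the deposited table of subitaneous development, that had a value of 1 or more in at least 3 of 9 libraries. The libraries are 42 h A, B, C and E (n = 4) and 3 h A to E (n = 5), of 26 in the series. Library 42 h D is outside the comparison because its profile is that of early eggs. All 9 libraries hold total RNA of pooled, subitaneous eggs, which develop without a pause. The parent population lived in the dark in 60 L tanks at a salinity of 32 and 16.9 °C, the eggs stayed under these conditions, and 0.3 µg of RNA went into each library. The design text calls the replicates technical, so the spread and the p-values below cover only the variation between these samples, not that between independent cultures.

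An animal egg starts with RNA and protein that its mother put there. Cleavage runs on these maternal products, and maternal RNA is cleared as the embryo's own genome takes over transcription. The crustacean nauplius is a swimming larva with jointed, muscle-driven limbs, a chitinous cuticle and a simple eye, and its tissues are laid down before it leaves the egg. The libraries mix every cell of the egg, so that fewer cells of a type and less RNA per cell cannot be told apart.

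The table held 8332558 reads for 42 h A, 21247591 for 42 h B, 24170769 for 42 h C and 12696885 for 42 h E, against 8749111 to 10550883 for the 3 h libraries. A deposited value is a normalized signal in which 1 read was worth between 0.0098 and 0.0122 in these 9 libraries. Values of different genes are not divided by gene length, so each value is compared between samples, and a higher value of one gene than of another is not read as more of its RNA. Over all members the values summed to between 8.23e+04 and 2.57e+05 per 42 h library and to between 8.53e+04 and 1.21e+05 per 3 h library. Much of that gap lay in 6 genes without a named match, singled out after their values were seen because they took up the largest part of the summed value at 42 h. They held 6.74% of the summed value in 42 h A, 60.6% in 42 h B, 48.9% in 42 h C and 29.4% in 42 h E, against 2.63% to 8.86% in the 3 h libraries. Without them the sums were 76733, 101137, 125544 and 105089 in 42 h A, B, C and E, against 81069 to 110338 at 3 h. One of the 6, DN2362_c19_g1, stood at 1448, 50995, 46287 and 11031 in 42 h A, B, C and E, against 2988, 1114, 3096, 1300 and 1877 in 3 h A to E, and the groups overlapped. Open reading frames read from ribosomal RNA also moved with the stage. Their 26 tested members summed to between 214 and 864 at 42 h and to between 12.9 and 59.5 at 3 h. The part of either in the results was not tested.

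Genes are named by the best protein match in the assembly identifier, which points to a related protein and does not identify the gene. Of the members, 1598 had such a match, 1736 had a match or a protein domain, and 810 carried a predicted signal peptide. Matches to proteins of other kingdoms were mostly called higher at 42 h too. Of 181 members with a plant or algal best match, 171 were called higher (93 higher and 11 lower after the median-ratio rescaling given below), with sums of 1121 to 2082 at 42 h against 181 to 248 at 3 h. Of 39 classed as bacterial or archaeal, 32 were called higher and 5 lower (15 and 8 after that rescaling). Their sums were 175 to 314 at 42 h against 114 to 144 at 3 h. Organism codes set these classes, with errors. The bacterial class holds DN1292_c0_g1, a clam cyclin B match (mean 43.7 at 3 h), and DN4817_c0_g1, a leech match (mean 27.7 at 3 h), both called lower. Its counts and sums are therefore no measure of bacterial RNA. No gene matched the name patterns of photosynthesis proteins, in a table that holds only genes selected as differentially expressed, so algal feed could not be checked by these markers. What part RNA of other organisms had in the results was not tested.

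Most members were called different between 42 h and 3 h, and more of them upward than downward. By limma on log2(value + 1), with Benjamini-Hochberg adjustment over the 4761 genes and a call at an adjusted p under 0.05, 3791 genes (79.6%) were higher and 772 (16.2%) lower, together 95.8%, and 198 were not called. At an unadjusted p under 0.05 there were 4566. Every 42 h library lay above every 3 h library in 3497 genes (73.5%) and below it in 727 (15.3%), and the groups overlapped in 537. The log2 change of all members had a median of 1.54 and ran from -7.49 to 6.68. Part of the excess upward was fixed by the filter. No 3 h library reached the value of 1 in 2441 members (51.3%), which were therefore tested only because they were higher at 42 h, and no 42 h library reached it in 323. Of the 1826 members that reached it in 3 or more 3 h libraries, 910 were higher, 772 lower and 144 not called, a choice that leans the other way. Beside most gene groups below stands how many of their tested members had no 3 h library at 1. For such members a call upward is a description and no support for a rise of the group. A call downward of members with no 42 h library at 1 is read the same way, and their number is given for some groups. Changes of 3 or more on this scale numbered 582 upward and 266 downward. Reads were at 0 in every 3 h library for 82 members and at 0 in every 42 h library for 27. The authors had selected all genes of the table as differentially expressed on these samples, with a fold change of 2 and an alpha of 0.001 as thresholds, so the calls are not independent evidence.

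The excess of higher over lower calls depended on how the libraries were scaled. Median-ratio rescaling moved the median log2 change by -1.35, to 0.19, and then 1524 genes (32%) were higher and 1122 (23.6%) lower. Quantile normalization moved it by -1.10, to 0.44, with 2107 genes (44.3%) higher and 931 (19.6%) lower. All 772 genes called lower were called lower under both. Of the 3791 called higher, 912 had the opposite sign on the first rescaling and 486 on the second. A change upward is therefore best read against the median of 1.54, and beside each group below stands its count on the rescaled values, meaning after median-ratio rescaling, where 32.0% of all members were higher. With 42 h D put back, 3486 genes were higher and 712 lower.

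**Figure D1:**
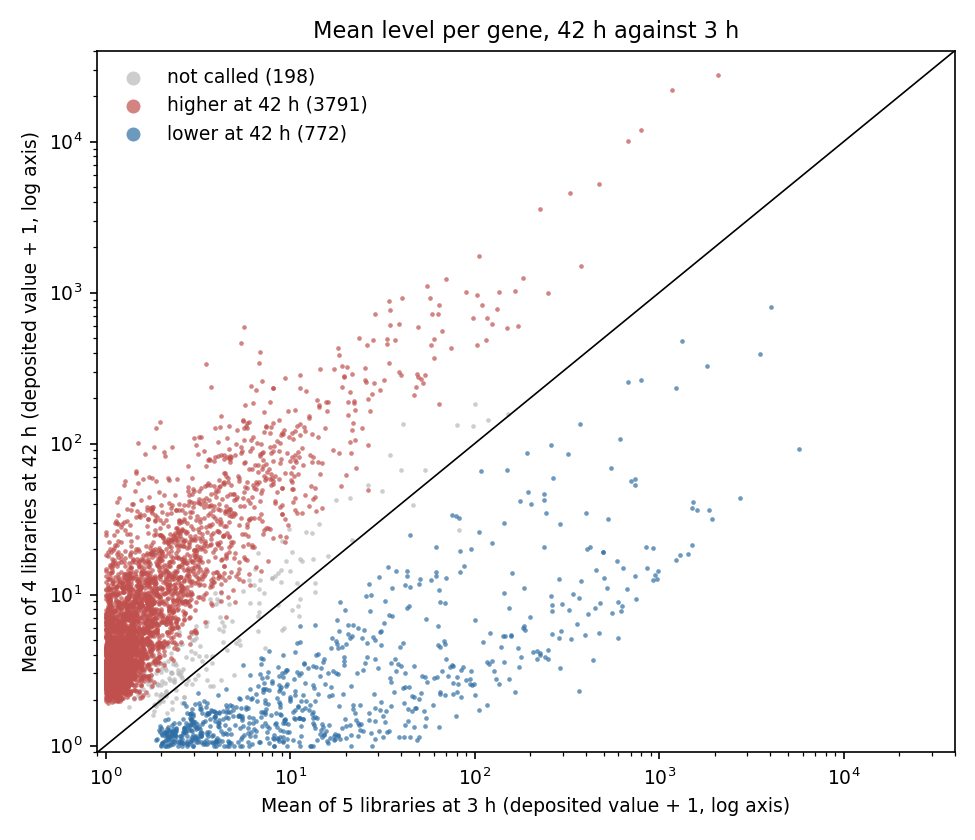
Mean deposited value plus 1 of each of the 4761 genes, at 42 h (4 libraries, vertical log axis) and at 3 h (5 libraries, horizontal log axis), with the line of equal level. The 3791 genes called higher crowd near the floor at 3 h and the 772 called lower fan out below the line, and 912 of those called higher changed sign after median-ratio rescaling.

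Transcripts of cell division were among those that fell. Of 9 members of cyclins and DNA replication, 8 were lower and 1 was higher at 42 h (0 higher and 9 lower on the rescaled values), with a median log2 change of -1.56 against 1.54 over all members. DN1814_c0_g1 matches cyclin B of a limpet, the cyclin that drives entry into mitosis. It stood at 0.941, 0.942, 0.434 and 1.03 in 42 h A, B, C and E, against 16.3, 17.4, 21.2, 16.9 and 15.3 in 3 h A to E. All 42 h libraries lay far below all 3 h libraries, with a log2 change of -3.33 (SE 0.24, limma adjusted p = 5.1e-07). A second cyclin B match, DN1292_c0_g1, averaged 10.2 ± 3.72 at 42 h and 43.7 ± 4.12 at 3 h (SD, n = 4 and 5). DN4676_c0_g1, which matches the large subunit of ribonucleotide reductase, the enzyme that makes DNA precursors, averaged 6.23 ± 3.53 at 42 h and 34.7 ± 5.02 at 3 h. The member that went the other way was DN13614_c0_g1, a match to cyclin D1, which in mammals acts in the G1 phase. It was the only member with no 3 h library at 1. It was higher by 0.86 (SE 0.17, limma adjusted p = 4.0e-04) but lower on the rescaled and quantile-normalized values and by edgeR and DESeq2 with their own scaling.

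The linker histones, which bind the DNA between nucleosomes, fell without exception. All 6 members were lower (6 of 6 on the rescaled values), with a median log2 change of -4.70. For 2 of the 6 no 42 h library was at 1. DN3534_c3_g1, which like DN12273_c0_g2, DN25658_c0_g1 and DN4693_c1_g1 matches a sea urchin H1-delta, had 11.9, 21.7, 0.827 and 11.2 in 42 h A, B, C and E, against 416, 328, 395, 391 and 344 in 3 h A to E. The groups stood well apart, and 42 h C lay lowest (log2 change -5.38, SE 0.60, limma adjusted p = 9.0e-06). Summed over the 6 members, the level was 22.7, 28.1, 1.19 and 16.4 in 42 h A, B, C and E, against 500 to 637 at 3 h.

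The core histones, which form the nucleosome itself, split. Of 18 tested members, 8 with no 3 h library at 1, 11 were higher and 7 lower (4 and 7 on the rescaled values), and with DESeq2 scaling their median turned below 0. No 42 h library was at 1 for 2 of the 18. The summed level of the list followed the members that fell, with 146 to 350 at 42 h against 1541 to 2488 at 3 h. DN4222_c1_g1, a match to the replacement histone H3.3, stood at 50.9, 54.6, 24.8 and 92.3 in 42 h A, B, C and E, against 503, 617, 1020, 664 and 710 in 3 h A to E. The groups did not overlap (log2 change -3.74, SE 0.39, limma adjusted p = 5.8e-06). DN2548_c1_g1, another H3.3 match, fell by 3.71 on the log2 scale and DN7085_c0_g1, a match to histone H3, by 3.11.

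Genes that match UAF30, in yeast a subunit of the factor that starts transcription of ribosomal RNA genes, or that carry a SWIB domain were mostly lower at 42 h. Of 11 members 10 were lower and 1 was higher (10 lower and 0 higher on the rescaled values), with a median log2 change of -2.48. DN529_c0_g1, a UAF30 match with a SWIB domain, stood at 294, 401, 323 and 554 in 42 h A, B, C and E, against 2804, 3287, 4489, 3321 and 3693 in 3 h A to E. Every 42 h library lay below every 3 h library (log2 change -3.19, SE 0.31, limma adjusted p = 3.2e-06). DN2252_c0_g1 averaged 51.8 ± 18.7 at 42 h and 735 ± 87.2 at 3 h (SD, n = 4 and 5). DN20787_c0_g1 averaged 2.13 ± 1.43 at 42 h and 36.4 ± 24.1 at 3 h, with a wide scatter among the 3 h libraries. The exception, DN90193_c0_g1, averaged 90.2 ± 9.91 at 42 h and 16.1 ± 4.09 at 3 h, a difference whose sign turned on the rescaled values and with edgeR and DESeq2 scaling.

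The largest fall among genes with a named match was that of a reverse transcriptase. DN5594_c0_g1, which matches the polymerase of the transposon BS of Drosophila, had 2.27, 3.77, 0.476 and 2.53 in 42 h A, B, C and E, against 233, 302, 332, 273 and 298 in 3 h A to E. Its log2 change was -6.58 (SE 0.35, limma adjusted p = 1.5e-07), with a wide gap between the groups. DN16082_c0_g1, a match to the polymerase of the jockey element, averaged 0.420 ± 0.129 at 42 h and 5.26 ± 0.685 at 3 h (SD, n = 4 and 5). The third tested member of this list was not called (3 of 3 lower on the rescaled values). No 42 h library was at 1 for 1 of the 3.

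Among transcription factors 9 of 14 members were lower and 4 higher (10 and 0 on the rescaled values), and the median log2 change was -1.31. No 42 h library was at 1 for 6 of the 14 (42.9%, against 6.78% of all members), and no 3 h library for 3. The filter fixed the direction of these. DN906_c0_g1, a match to the D site-binding protein, a leucine zipper factor of the mammalian clock output, averaged 0.472 ± 0.3 at 42 h and 21.9 ± 5.23 at 3 h (SD, n = 4 and 5). DN7151_c0_g1, a match to the zinc finger factor SP4, stood at 0.051, 0.037, 0.021 and 0.083 in 42 h A, B, C and E, against 5.72, 6.40, 6.54, 5.53 and 5.02 in 3 h A to E. At 42 h it was thus close to the value of a few reads, and no library of the groups overlapped (log2 change -2.70, SE 0.20, limma adjusted p = 5.9e-07). DN12490_c0_g1, a match to the related SP9, fell by 2.69 on the log2 scale and was at 0 in 42 h B and C.

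Developmental signalling had members on both sides, 9 higher and 3 lower of 13 tested (4 and 4 on the rescaled values). Of the 13, 7 had no 3 h library at 1 and 2 no 42 h library at 1. The 3 that fell were matches to the Wnt ligand WNT8, to its co-receptor LRP6 and to PTC2, a receptor of Hedgehog signals. DN13388_c0_g1 (WNT8) averaged 0.0315 ± 0.0244 at 42 h and 1.53 ± 0.253 at 3 h (SD, n = 4 and 5), and DN3642_c0_g1 (LRP6) averaged 0.284 ± 0.199 at 42 h and 2.11 ± 0.246 at 3 h. DN1045_c0_g1 (PTC2) fell by 2.07 on the log2 scale. The members that rose most were matches to spaetzle proteins, secreted ligands of Toll-type receptors in Drosophila. DN3344_c0_g1 had 49.8, 147, 215 and 129 in 42 h A, B, C and E, against 7.06, 5.49, 10.6, 7.05 and 5.23 in 3 h A to E, with no overlap (log2 change 3.93, SE 0.41, limma adjusted p = 6.1e-06). DN16228_c0_g1 and DN4407_c0_g1, also spaetzle matches, rose by 3.26 and 2.30.

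The germ line and maternal factors were few. Of 5 tested members 3 were lower and 2 higher (3 and 0 on the rescaled values). No 42 h library was at 1 for the 3 lower members, so the filter fixed their direction. No 3 h library was at 1 for 1 of the higher members, DN26390_c0_g1. Those lower were DN9335_c0_g1, a match to the small RNA effector AGO1, DN10564_c0_g1, a match to the germ cell helicase DDX4 (vasa), and DN10552_c0_g1, a match to Asterix, a piRNA pathway factor in Drosophila. The DDX4 match averaged 0.498 ± 0.356 at 42 h and 1.90 ± 0.366 at 3 h (SD, n = 4 and 5), and its call was lost with 42 h D put back (limma adjusted p = 0.0608). Those higher were DN3860_c0_g1, a match to an mRNA decay activator of the TIS11 family, and DN26390_c0_g1, a match to DAZ-associated protein 1. The first of these averaged 12 ± 5.30 at 42 h and 1.52 ± 0.288 at 3 h, and its sign turned on the rescaled values and with DESeq2 scaling.

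Several of the largest falls belonged to families in which other members were higher on the deposited scale. DN6341_c0_g1 carries an EF-hand domain, a calcium-binding fold, and had 8.57, 7.88, 1.39 and 8.59 in 42 h A, B, C and E, against 456, 576, 665, 512 and 557 in 3 h A to E. Its groups lay far apart (log2 change -6.37, SE 0.42, limma adjusted p = 3.7e-07), and DN2533_c0_g1 of the same domain fell by 5.30. Of the 11 members with this EF-hand domain, 4 were lower and 6 higher, and 5 lower and 0 higher on the rescaled values. Among C-type lectins, sugar-binding proteins, 23 of 29 were higher and 4 lower (9 and 7 on the rescaled values), close to the share over all members, and 14 of the 29 had no 3 h library at 1. The lectin DN3172_c1_g1, a match to brevican core protein, stood at 5.38, 4.99, 1.87 and 5.15 in 42 h A, B, C and E, against 138, 163, 172, 150 and 156 in 3 h A to E. No library of one group reached the other (log2 change -4.94, SE 0.31, limma adjusted p = 2.6e-07). DN2195_c1_g1, a snaclec match, and DN2045_c0_g1, a mannose receptor match, fell by 3.96 and 3.73. No 42 h library was at 1 for 3 of the 29 lectins, both of these among them, so the filter fixed their direction. Of 5 genes with a fibronectin type 2 domain, 2 fell and 2 rose (3 and 1 on the rescaled values, where the median turned below 0). Of the 5, 1 had no 3 h library at 1. The member DN4094_c0_g1 averaged 1.46 ± 0.800 at 42 h and 43.3 ± 4.07 at 3 h (SD, n = 4 and 5). DN2498_c0_g1, with the LPMO_10 domain of oxidative polysaccharide-cleaving enzymes, averaged 0.131 ± 0.179 at 42 h and 37.9 ± 6.64 at 3 h. It had no 42 h library at 1, so the filter fixed its direction. Of 5 tested members with that domain, 2 were higher and 2 lower (1 and 3 on the rescaled values).

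**Figure D2:**
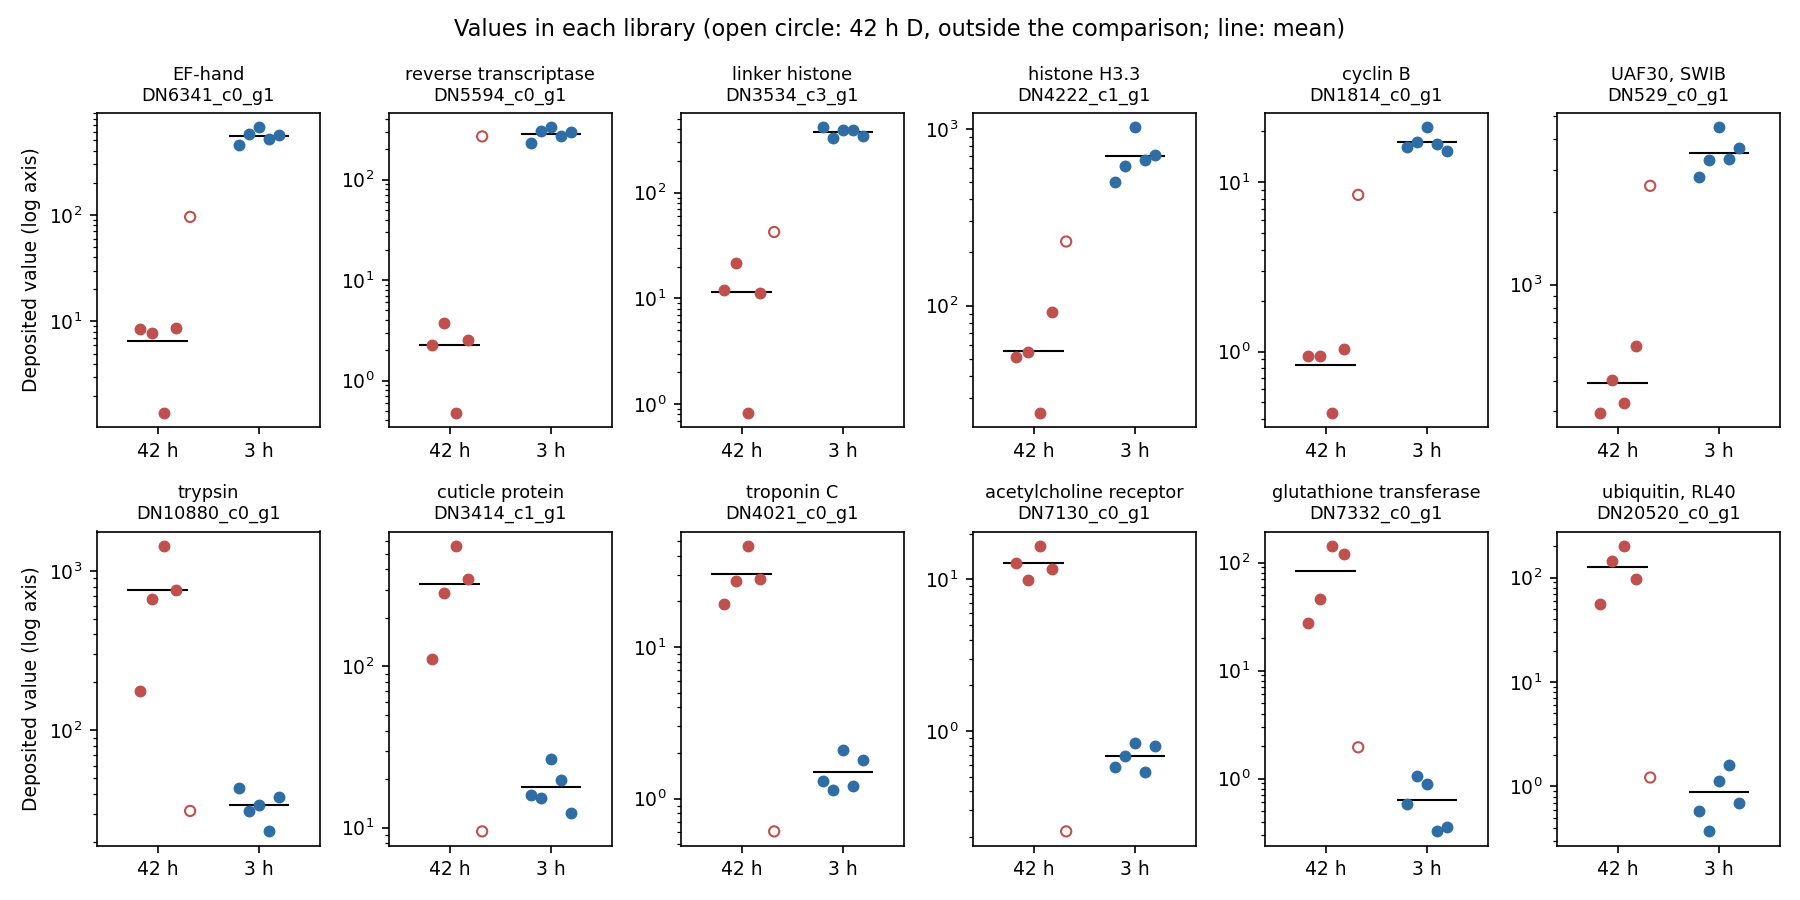
Deposited values (log axis) of 12 named genes in each 42 h library (left of each panel) and each 3 h library (right), with the group mean as a line and 42 h D as an open circle outside the comparison. The 6 genes of the upper row lie lower at 42 h and the 6 of the lower row higher, with no overlap between the groups, and median-ratio rescaling turned the sign of none of the 12.

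Of 36 tested cuticle proteins, structural proteins of the exoskeleton that bind chitin, 35 were higher and 0 lower (16, or 44.4%, and 2 on the rescaled values). Of the 36, 12 had no 3 h library at 1, and of the 17 at 1 in 3 or more 3 h libraries 16 were higher and 1 was not called. Their median log2 change was 2.98, against 1.54 over all members. DN3414_c1_g1, a match to a cuticle protein of the mosquito Anopheles, had 111, 286, 560 and 349 in 42 h A, B, C and E, against 15.9, 15.2, 26.8, 19.8 and 12.3 in 3 h A to E. The lowest 42 h library, A, was still well above the highest 3 h library (log2 change 3.94, SE 0.44, limma adjusted p = 9.7e-06). DN6231_c0_g1 and DN3414_c1_g2 rose by 3.88 and 3.75. All 5 members that match resilin, the rubber-like protein of insect cuticle, were higher (2 higher and 0 lower on the rescaled values), with sums of 146.6 to 381.3 at 42 h against 12.4 to 24.1 at 3 h.

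In chitin metabolism 48 of 49 tested members were higher and 1 lower (18, or 36.7%, and 5 on the rescaled values), but 34 of the 49 had no 3 h library at 1. DN809_c0_g2, a match to Obstructor-E, a chitin-binding protein that shapes the Drosophila cuticle, averaged 120 ± 63.9 at 42 h and 9.65 ± 3.72 at 3 h (SD, n = 4 and 5). DN7492_c0_g1, with a chitin-binding CBM_14 domain, averaged 30.5 ± 16.9 at 42 h and 0.696 ± 0.654 at 3 h. The member that fell was DN4958_c0_g1, which matches a chitooligosaccharide deacetylase of the bacterium Vibrio. It stood at 0.253, 0.428, 0 and 0.107 in 42 h A, B, C and E, against 15.1, 15.7, 17, 17 and 17.4 in 3 h A to E. The 3 h libraries were close to each other and all were far above 42 h (log2 change -3.88, SE 0.23, limma adjusted p = 1.7e-07). This member had no 42 h library at 1, so the filter fixed its direction.

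Muscle genes changed unevenly. Among 92 tested matches to myosin heavy chain or paramyosin, the motor and core proteins of the thick filament, 46 were higher, 16 lower and 30 not called, and on the rescaled values the balance turned to 5 higher and 46 lower. The share called higher was thus below the 79.6% of all members, and the median log2 change of 0.93 was below theirs of 1.54. With 42 h D put back, 25 were higher and 2 lower. No 3 h library was at 1 for 8 of the 92, and no 42 h library for 10. The summed level was 4154, 1609, 4336 and 6720 in 42 h A, B, C and E, against 595 to 1092 at 3 h, so that every 42 h library was above every 3 h library. DN5896_c0_g1, a match to a mouse embryonic myosin, had 228, 198, 470 and 645 in 42 h A, B, C and E, against 12.2, 11.7, 33.3, 15.9 and 13.5 in 3 h A to E. The groups were well separated (log2 change 4.34, SE 0.44, limma adjusted p = 4.9e-06). DN288_c0_g3, which matches Drosophila muscle myosin, averaged 962 ± 625 at 42 h and 102 ± 40.0 at 3 h (SD, n = 4 and 5). Reads of near-identical myosin, actin, tropomyosin and tubulin copies or fragments could have been split between assembly genes, so single members of these families are uncertain.

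The thin filament and other muscle proteins were more uniform, with 63 of 65 tested higher and 0 lower (10, or 15.4%, and 6 on the rescaled values, where their median changed sign to -0.08, as it did with edgeR and DESeq2 scaling). With 42 h D put back, 44 were higher. Of the 65, 26 had no 3 h library at 1, and of the 37 at 1 in 3 or more 3 h libraries 35 were higher. DN4021_c0_g1, a match to barnacle troponin C, the calcium sensor of the thin filament, had 19, 27.3, 46.4 and 27.8 in 42 h A, B, C and E, against 1.31, 1.13, 2.10, 1.21 and 1.79 in 3 h A to E. The gap between the groups was wide (log2 change 3.58, SE 0.30, limma adjusted p = 1.2e-06). DN9190_c0_g1, a tropomyosin match, rose by 3.21 and DN536_c0_g1, a match to myosin regulatory light chain, by 3.18. DN4018_c0_g1, a troponin T match, averaged 235 ± 124 at 42 h and 47.0 ± 10.6 at 3 h (SD, n = 4 and 5), and its sign turned on the rescaled values and with edgeR and DESeq2 scaling. Its call was also lost with 42 h D (limma adjusted p = 0.138).

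All 82 tested tubulins and actins, the subunits of microtubules and microfilaments, were higher on the deposited scale (24, or 29.3%, higher and 5 lower on the rescaled values, near the 32.0% of all members). No 3 h library was at 1 for 23 of them, and all 49 at 1 in 3 or more 3 h libraries were higher. The largest rise among genes with a named match was that of DN6537_c0_g1, a beta-tubulin match, with 60.7, 187, 201 and 103 in 42 h A, B, C and E, against 0, 1.12, 1.51, 1.41 and 0.793 in 3 h A to E. Library 3 h A was at 0, the other 3 h libraries were low, and all 42 h libraries lay far above them (log2 change 6.06, SE 0.42, limma adjusted p = 4.4e-07). The 30 tubulins whose match was classed as animal summed to 1947 to 3734 at 42 h and 261 to 454 at 3 h. The 16 others summed to 92.9 to 239 at 42 h and 2.64 to 9.20 at 3 h. DN2111_c2_g1, a match to actin of the copepod Calanus, averaged 1242 ± 714 at 42 h and 181 ± 60.8 at 3 h (SD, n = 4 and 5), with its sign turned on the rescaled values and with edgeR and DESeq2 scaling.

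Of 119 receptors, channels and synapse proteins of the nervous system in the table, 28 were tested and called higher (11 higher and 1 lower on the rescaled values). For 27 of the 28 no 3 h library was at 1, so the filter fixed their direction. DN7130_c0_g1, a match to a subunit of the nicotinic acetylcholine receptor, had 12.7, 9.84, 16.6 and 11.8 in 42 h A, B, C and E, against 0.578, 0.680, 0.83, 0.540 and 0.793 in 3 h A to E. The 42 h libraries lay close together and stood far above those of 3 h (log2 change 3.01, SE 0.23, limma adjusted p = 8.0e-07). A second receptor subunit match, DN5069_c0_g1, rose by 2.93. DN1343_c0_g1, a match to synaptobrevin, the vesicle protein of transmitter release, averaged 8.71 ± 3.74 at 42 h and 0.432 ± 0.0839 at 3 h (SD, n = 4 and 5).

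The 6 tested genes of light sensing, of 17 in the table, were higher, though 5 of them had no 3 h library at 1, with 2 higher and 1 lower on the rescaled values and a median turned below 0 with DESeq2 scaling. DN13864_c0_g1, a match to a compound-eye opsin of a crab, stood at 1.52, 4.11, 4.20 and 2.31 in 42 h A, B, C and E, against 0.186, 0.206, 0.253, 0.138 and 0.052 in 3 h A to E. The groups did not overlap (log2 change 1.73, SE 0.23, limma adjusted p = 3.2e-05). DN439_c1_g1, another match to that opsin, averaged 27.9 ± 14.5 at 42 h and 8.79 ± 2.20 at 3 h (SD, n = 4 and 5), and the sign of its change turned on the rescaled values and with edgeR and DESeq2 scaling. DN3931_c0_g1, a match to arrestin, which shuts off active opsin, rose by 1.85 but had the opposite sign with DESeq2 scaling.

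The 17 tested peptide hormones and their processing enzymes were higher on the deposited scale, 11 of them with no 3 h library at 1. On the rescaled values 3 (17.6%, below the 32.0% of all members) were higher and 1 lower. DN4366_c0_g1, a match to an ant diuretic hormone, averaged 22.7 ± 10.9 at 42 h and 2.20 ± 0.668 at 3 h (SD, n = 4 and 5). DN3962_c0_g1, a match to 7B2, the chaperone of a prohormone convertase, had 11.6, 11.7, 22.3 and 12.4 in 42 h A, B, C and E, against 1.77, 1.80, 1.08, 1.36 and 1.49 in 3 h A to E. All 42 h libraries were higher, and 42 h C stood apart above the others (log2 change 2.58, SE 0.27, limma adjusted p = 5.2e-06). DN17115_c0_g1, a match to the enzyme that amidates peptides, also rose by 2.58.

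Trypsin-type proteases had shares near those of all members, whereas other peptidases had a larger share higher on the rescaled values. Among trypsin-type proteases 32 of 37 tested (86.5%, against 79.6% of all members) were higher and 2 lower, and on the rescaled values 10 (27.0%, against 32.0%) were higher and 5 lower. Among other peptidases 43 of 48 tested (89.6%, against 79.6%) were higher and 2 lower, and on the rescaled values 26 (54.2%, against 32.0%) and 5. No 3 h library was at 1 for 24 of the 37 and 34 of the 48. No 42 h library was at 1 for 1 of the 37, the trypsin theta match named below, so the filter fixed its direction. DN10880_c0_g1, a match to crayfish trypsin, stood at 176, 672, 1442 and 761 in 42 h A, B, C and E, against 43.6, 31.1, 33.8, 23.2 and 37.9 in 3 h A to E. Every 42 h library lay above every 3 h library, though they differed widely among themselves (log2 change 4.13, SE 0.52, limma adjusted p = 1.9e-05). DN960_c0_g1, a match to crayfish carboxypeptidase B, rose by 3.25, and DN15414_c0_g1, a match to a papain-like cysteine protease of pineapple, by 3.67. The 2 trypsin-type members that fell were DN7325_c0_g1, a match to trypsin theta, which averaged 0.119 ± 0.0590 at 42 h and 6.52 ± 0.535 at 3 h (SD, n = 4 and 5), and DN36723_c0_g1, a match to protein C, which fell by 1.35. Of the other peptidases DN3637_c0_g1, a match to the membrane protein ADAM29, fell by 3.80 and DN4193_c0_g1, a match to MMP9, by 1.28, the last with no call once 42 h D was put back (limma adjusted p = 0.0715).

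Of 6 tested protease inhibitors, 3 with no 3 h library at 1, 5 were higher and 1 lower (1 and 3 on the rescaled values, with a median below 0 there and with edgeR and DESeq2 scaling). The one that fell, DN4817_c0_g1, matches a leech tryptase inhibitor of the Kazal type and stood at 0.465, 0.575, 0.145 and 0.618 in 42 h A, B, C and E, against 23.9, 26.3, 32.6, 27.3 and 28.4 in 3 h A to E. Its groups were far apart (log2 change -4.31, SE 0.24, limma adjusted p = 1.6e-07). It had no 42 h library at 1, so the filter fixed its direction. DN18961_c0_g1, an alpha-2-macroglobulin-like match, averaged 26.0 ± 4.11 at 42 h and 6.21 ± 2.33 at 3 h (SD, n = 4 and 5), with its sign turned on the rescaled values and with edgeR and DESeq2 scaling.

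Yolk and lipid genes had 22 of 25 tested members (88%, against 79.6% of all members) higher and 2 lower. On the rescaled values 9 (36.0%, against 32.0%) were higher and 3 lower, and 16 of the 25 had no 3 h library at 1. Outside that list, DN7020_c0_g1, a match to prosaposin, the precursor of lysosomal lipid-binding proteins, was among the 10 largest rises, with 23.6, 121, 174 and 119 in 42 h A, B, C and E, against 2.09, 2.37, 2.67, 1.52 and 2.37 in 3 h A to E. The groups were clearly apart, with 42 h A lowest of its group (log2 change 4.81, SE 0.50, limma adjusted p = 5.8e-06). Within the list DN23587_c0_g1, a fatty acid-binding protein match, averaged 24.9 ± 11.8 at 42 h and 2.21 ± 0.988 at 3 h (SD, n = 4 and 5). DN5661_c0_g1, a match to the lipid carrier apolipoprotein D, rose by 3.09. Against the rest, DN4455_c0_g1, a pancreatic lipase match, fell by 2.99 and DN19657_c0_g1, which has an apolipoprotein domain, by 0.97. No 42 h library was at 1 for these 2, so the filter fixed their direction.

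Transporters divided, with 24 of 35 tested (68.6%, against 79.6% of all members) higher and 11 lower. On the rescaled values 12 (34.3%, near the 32.0% of all members) were higher and 11 lower. No 3 h library was at 1 for 20 of the 35, and no 42 h library for 4. The summed level was 75.7 to 158 at 42 h against 112 to 175 at 3 h. DN8227_c4_g2, a match to the alpha subunit of the sodium pump, averaged 26.7 ± 12.4 at 42 h and 1.43 ± 1.02 at 3 h (SD, n = 4 and 5). DN641_c0_g1, a match to a member of solute carrier family 35, stood at 4.13, 3.18, 3.32 and 3.3 in 42 h A, B, C and E, against 35.2, 39.9, 38.4, 40.2 and 37.5 in 3 h A to E. Both groups were tight and far apart (log2 change -3.13, SE 0.24, limma adjusted p = 7.7e-07). DN414_c0_g1, also of that family, and DN18580_c0_g1, a match to the glucose transporter GLUT2, fell by 2.93 and 2.82.

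**Figure D3:**
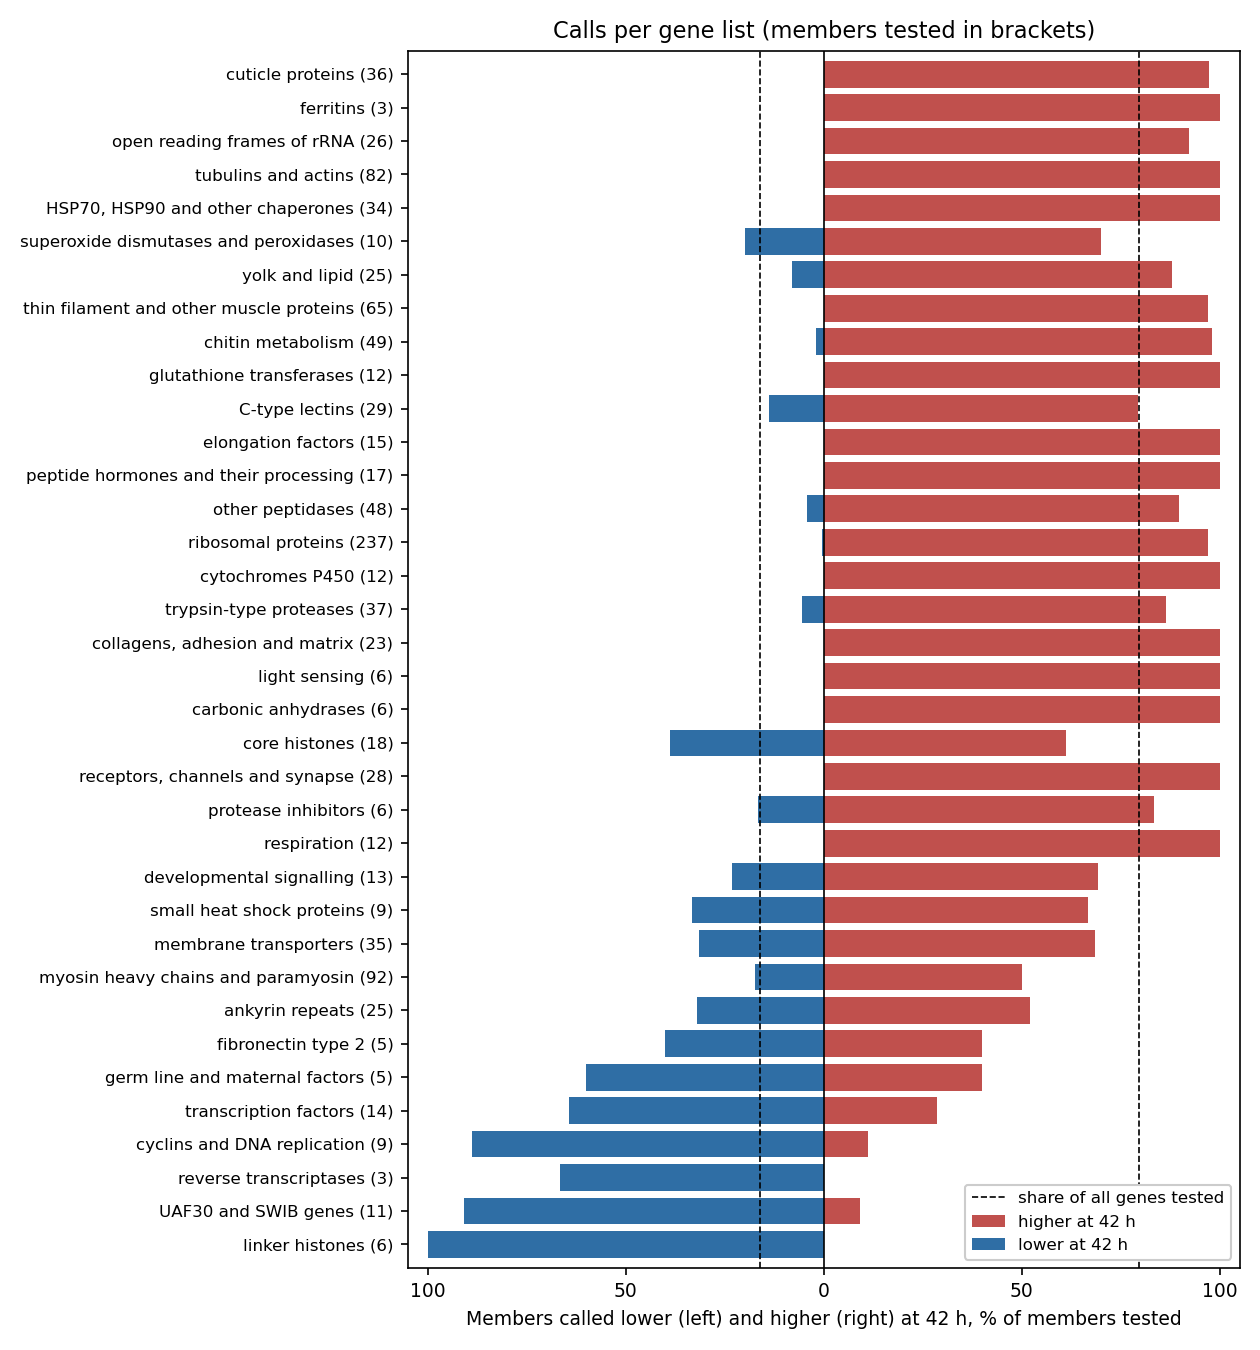
Share of the tested members of each of 36 gene lists called higher (red, to the right) or lower (blue, to the left) at 42 h, in percent of members, with the shares over all 4761 genes (79.6% and 16.2%) as dashed lines. The linker histones lie wholly to the left and the tubulins and actins wholly to the right (23 of those 82 had no 3 h library at 1), and after median-ratio rescaling the myosin heavy chains (5 higher, 46 lower) and the ankyrin repeats (2 higher, 16 lower) turned to the left.

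The 34 tested members of HSP70, HSP90 and other chaperones, which fold and refold proteins, were higher (19, or 55.9%, higher and 3 lower on the rescaled values). No 3 h library was at 1 for 18 of them, and the 16 others, all at 1 in 3 or more 3 h libraries, were higher too. DN1118_c2_g1, whose best match is an HSP70 of the malaria parasite Plasmodium, had 96.1, 147, 110 and 157 in 42 h A, B, C and E, against 9.93, 9.65, 5.87, 4.46 and 4.48 in 3 h A to E. The lowest 42 h library was far above the highest 3 h library (log2 change 4.07, SE 0.33, limma adjusted p = 1.1e-06). DN8447_c0_g1, a match to the constitutive HSP70 of Drosophila, averaged 182 ± 84.4 at 42 h and 63.1 ± 8.76 at 3 h (SD, n = 4 and 5). Its sign turned on the rescaled values and with edgeR and DESeq2 scaling, and its call was lost with 42 h D (limma adjusted p = 0.194). The small heat shock proteins were 6 higher and 3 lower of 9 (1 and 3 on the rescaled values, with a median below 0 there, after quantile normalization and with edgeR and DESeq2 scaling). No 3 h library was at 1 for 3 of the 9, and no 42 h library for 2. DN1337_c0_g1, an HSP27 match, averaged 25.3 ± 10.6 at 42 h and 1.56 ± 0.265 at 3 h, whereas DN4793_c21_g1, an HSP26 match, averaged 1.02 ± 0.713 at 42 h and 4.33 ± 0.795 at 3 h. DN3843_c0_g1, a match to lethal(2) essential for life of Drosophila, rose by 1.49 with its sign turned on the rescaled and quantile-normalized values and with edgeR and DESeq2 scaling.

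Among detoxifying enzymes, the 12 tested glutathione transferases and the 12 tested cytochromes P450 were higher, but 8 of the transferases and 10 of the P450 genes had no 3 h library at 1. On the rescaled values 4 glutathione transferases (33.3%, near the 32.0% of all members) were higher and 1 lower, and 7 P450 genes (58.3%) were higher and 0 lower. DN7332_c0_g1, a glutathione transferase match, had 27.6, 45.7, 143 and 121 in 42 h A, B, C and E, against 0.578, 1.05, 0.887, 0.324 and 0.355 in 3 h A to E. Each 42 h library was far above the 3 h group, with C and E higher than A and B (log2 change 5.43, SE 0.46, limma adjusted p = 1.6e-06). DN3377_c0_g1, a P450 match, averaged 4.53 ± 0.758 at 42 h and 0.385 ± 0.0655 at 3 h (SD, n = 4 and 5). DN16682_c0_g1, another P450 match, rose by 1.95 with its sign turned on the rescaled values and with edgeR and DESeq2 scaling.

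Superoxide dismutases and peroxidases had 7 of 10 members higher and 2 lower (2 and 3 on the rescaled values, with a median below 0 with edgeR and DESeq2 scaling). No 3 h library was at 1 for 2 of the 10, and 2 copper-zinc superoxide dismutase matches went opposite ways. DN4253_c0_g1 stood at 11.8, 35.4, 47.1 and 25.1 in 42 h A, B, C and E, against 0.784, 0.649, 1.39, 0.599 and 0.835 in 3 h A to E (log2 change 3.92, SE 0.37, limma adjusted p = 3.0e-06). DN829_c1_g1 stood at 2.23, 2.87, 0.600 and 2.45 in 42 h A, B, C and E, against 35.1, 40.3, 48.1, 40.5 and 41.1 in 3 h A to E (log2 change -3.86, SE 0.31, limma adjusted p = 1.0e-06). Neither had overlapping groups, and both kept their sign under every scaling tried. All 3 ferritins, which store iron, were higher (0 higher and 1 lower on the rescaled values, with a median below 0 with DESeq2 scaling). DN8240_c0_g1 averaged 66.9 ± 31.8 at 42 h and 6.07 ± 1.72 at 3 h (SD, n = 4 and 5). DN4715_c0_g1 rose by 2.67 and DN3233_c0_g1 by 2.13, with the sign turned with DESeq2 scaling for both and, for DN3233_c0_g1, also on the rescaled values and with edgeR.

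Ribosomal proteins formed the longest list, with 449 genes in the table and 237 tested. Of these 230 were higher and 1 lower (108, or 45.6%, and 5 on the rescaled values), but 194 of the 237 had no 3 h library at 1, and of the 9 at 1 in 3 or more 3 h libraries 6 were higher, 1 lower and 2 not called. Their summed level was 904, 2077, 2138 and 1010 in 42 h A, B, C and E, against 48.1 to 100.3 at 3 h. DN152619_c0_g1, a match to large-subunit protein L36a, had 52.3, 127, 149 and 72.1 in 42 h A, B, C and E, against 0.412, 0.381, 0.702, 0.305 and 0.647 in 3 h A to E. Its groups lay far apart (log2 change 5.97, SE 0.33, limma adjusted p = 1.7e-07). DN20520_c0_g1, a match to the ubiquitin and L40 fusion, rose by 5.96. By organism code 78 of the 237 had a best match classed as animal, of which 75 were higher (37 on the rescaled values). Of the 159 others, which can include animal matches that the codes missed, 155 were higher (71 on the rescaled values). The member that fell was DN6488_c12_g1, an L18a match, by 1.27. It had no 42 h library at 1, so the filter fixed its direction.

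The 15 tested elongation factors, of 36 in the table, were higher (11 and 0 on the rescaled values), 13 of them with no 3 h library at 1 and none at 1 in 3 of them. DN138238_c0_g1, a match to the factor EF-1-alpha of a fish, which brings charged tRNA to the ribosome, averaged 13.5 ± 7.26 at 42 h and 0.0890 ± 0.0350 at 3 h (SD, n = 4 and 5). DN147028_c0_g1, a match to that of a red alga, stood at 4.61, 12.9, 13.1 and 8.97 in 42 h A, B, C and E, against 0 in every 3 h library. Against a floor of 3 reads per 3 h library it was at least 318-fold higher at 42 h. Of the open reading frames read from ribosomal RNA, 24 of 26 were higher (9 and 0 on the rescaled values), and 10 had no 3 h library at 1. DN1808_c1_g1, a match to ART3 of yeast, averaged 47.9 ± 14.1 at 42 h and 0.444 ± 0.301 at 3 h.

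The 12 tested respiration genes, of 45 in the table, were higher (4 and 0 on the rescaled values, with a median below 0 with DESeq2 scaling), 10 of them with no 3 h library at 1. DN50847_c0_g1, a match to the mitochondrial ADP/ATP carrier, averaged 3.82 ± 2.08 at 42 h and 0.0296 ± 0.0183 at 3 h (SD, n = 4 and 5). DN88519_c0_g1, a match to the epsilon subunit of ATP synthase of sweet potato, was at 0 in every 3 h library and at least 109-fold higher at 42 h against the same floor. DN41117_c0_g1, a match to cytochrome oxidase subunit 2, rose by 1.73 with its sign turned on the rescaled values and with DESeq2 scaling. The 6 tested carbonic anhydrases, which interconvert carbon dioxide and bicarbonate, were higher (5 and 0 on the rescaled values), and none of the 6 had a 3 h library at 1. DN13110_c0_g2 had 3.17, 4.43, 22.1 and 10.2 in 42 h A, B, C and E, against 0.039, 0.052, 0.035, 0.049 and 0.063 in 3 h A to E. At 3 h that is a handful of reads in each library, and every 42 h library was higher (log2 change 3.06, SE 0.42, limma adjusted p = 3.8e-05).

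The 23 tested members of collagens, adhesion and matrix were higher (10, or 43.5%, and 0 on the rescaled values), 18 of them with no 3 h library at 1. DN6577_c0_g1, a match to the adhesion protein TGFBI, stood at 24.6, 18.8, 26.9 and 24.1 in 42 h A, B, C and E, against 1.51, 1.69, 3.05, 1.35 and 1.73 in 3 h A to E. The 42 h libraries lay close together and far above 3 h (log2 change 3.12, SE 0.26, limma adjusted p = 1.3e-06). Ankyrin repeat proteins were mixed, with 13 higher and 8 lower of 25, 2 and 16 on the rescaled values, and 8 and 4 with 42 h D. Of the 25, 4 had no 3 h library at 1 and 4 no 42 h library at 1. DN4279_c2_g1, whose best match is an ankyrin repeat protein of a giant virus, averaged 723 ± 294 at 42 h and 57.7 ± 14.0 at 3 h (SD, n = 4 and 5). DN5349_c0_g1, a match to death-associated protein kinase 1, averaged 0.660 ± 0.151 at 42 h and 12.3 ± 1.91 at 3 h.

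The largest changes of all belonged to genes with neither a match nor a domain. Of 3025 such members 2336 were higher and 572 lower (922 and 774 on the rescaled values), a share lower of 18.9% against 16.2% over all members. DN5403_c1_g1 had 1.99, 0.489, 0 and 2.64 in 42 h A, B, C and E, against 261, 432, 444, 352 and 340 in 3 h A to E. The fall was the largest of the comparison (log2 change -7.49, SE 0.40, limma adjusted p = 1.6e-07), and DN9751_c0_g1 followed at -7.43. DN125702_c1_g2 had 639, 839, 266 and 624 in 42 h A, B, C and E, against 4.64, 6.99, 5.50, 1.91 and 4.05 in 3 h A to E. The rise was the largest of the comparison (log2 change 6.68, SE 0.41, limma adjusted p = 2.4e-07). DN3263_c0_g1, which has a signal peptide and so may be secreted, averaged 338 ± 207 at 42 h and 2.52 ± 1.09 at 3 h (SD, n = 4 and 5). Of the 437 members with a signal peptide and neither match nor domain, 344 were higher and 74 lower (151 and 111 on the rescaled values). DN3582_c1_g1, singled out after its values were seen for its high 3 h value, averaged 90.5 ± 57.0 at 42 h and 5746 ± 790 at 3 h.

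The stages between the ends, 7 h (gastrulation), 14 h (organogenesis) and 24 h (appendage formation), show when the levels moved. These levels are a description, since each gene's halfway point is set by the same 3 h and 42 h libraries. They are on the deposited scale, and the timing was not checked under another scaling, which was applied to the 3 h and 42 h libraries only. A gene was taken to have passed halfway at the first stage from which its mean of log2(value + 1) stayed past the midpoint. Of the 772 genes called lower, 468 (60.6%) had passed it by 7 h, a further 142, 115 and 47 at the stages of 14, 24 and 42 h. Of the 3791 called higher, 45 (1.19%) had passed it by 7 h, and 347, 682 and 2717 (71.7%) at the stages of 14, 24 and 42 h. Of the genes called higher, 2169 had a middle stage below both ends and 375 had one above both.

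**Figure D4:**
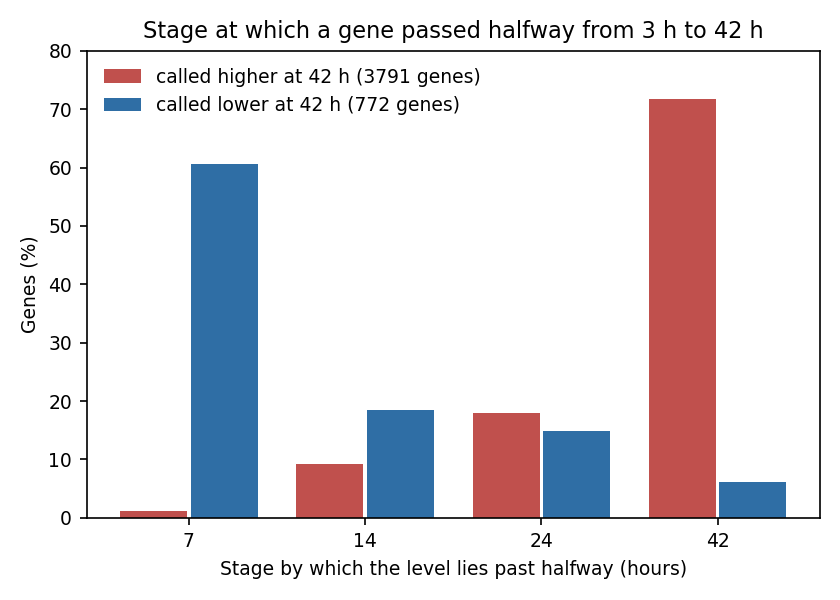
Share of genes, in percent, by the stage (hours, horizontal axis) at which their mean level passed halfway between 3 h and 42 h, for the 3791 genes called higher (red) and the 772 called lower (blue) at 42 h. The lower genes pass mostly by 7 h (60.6%) and the higher ones mostly only at 42 h (71.7%); 912 of those called higher changed sign after median-ratio rescaling.

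The early falls were led by the linker histones, whose summed mean was 580, 18.8, 20.2, 23.4 and 17.1 at 3, 7, 14, 24 and 42 h. The UAF30 and SWIB genes fell later, with 7292, 4170, 1289, 1013 and 1075 at 3, 7, 14, 24 and 42 h, and 8 of their 10 lower members passed halfway at 14 h. The cyclins and replication genes stepped down throughout, with 122, 54.9, 51.2, 37.2 and 25.0 at 3, 7, 14, 24 and 42 h. All 3 lists thus ended low, but only the linker histones were at their final level by gastrulation.

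Muscle genes passed halfway earlier than cuticle genes. The summed mean of the thin filament and other muscle proteins was 325, 497, 934, 1789 and 2040 at 3, 7, 14, 24 and 42 h, and of its 63 higher members 23 passed halfway at 14 h and 28 at 24 h. Myosin heavy chains and paramyosin came to 737, 1286, 2399, 4498 and 4205 at 3, 7, 14, 24 and 42 h. Their 16 members called lower were all highest at 14 h, and of the 30 not called 9 were highest at 14 h and 21 at 24 h, so a comparison of the ends alone leaves out their peak. Cuticle proteins came to 148, 123, 340, 534 and 2008 at 3, 7, 14, 24 and 42 h, with 24 of 35 higher members past halfway only at 42 h.

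Other groups had their lowest level at gastrulation and a first rise at 14 h. Trypsin-type proteases came to 86.1, 38.4, 380, 102 and 1077 at 3, 7, 14, 24 and 42 h. Ribosomal proteins came to 69.8, 21, 287, 225 and 1532 at 3, 7, 14, 24 and 42 h, and 225 of their 230 higher members passed halfway only at 42 h. The chaperones of the HSP70 and HSP90 list came to 144, 107, 262, 255 and 1196 at 3, 7, 14, 24 and 42 h. In all 3 lists the 42 h level was the highest of the 5 stages.

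**Figure D5:**
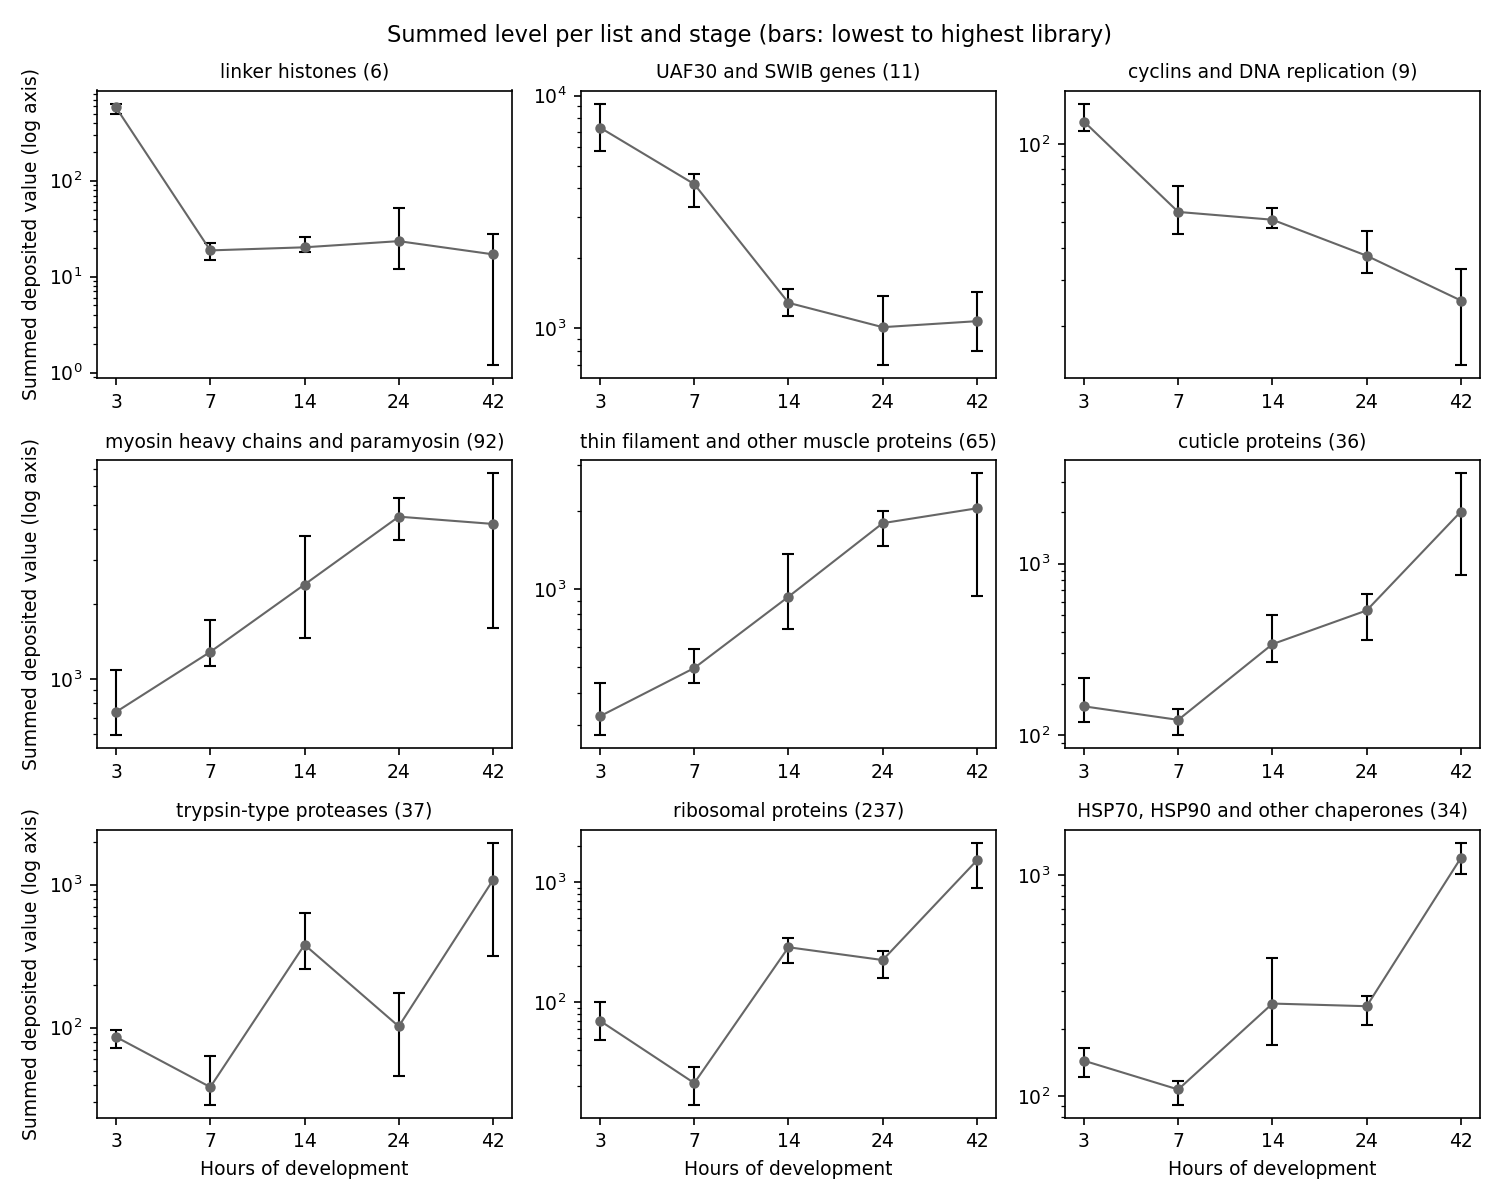
Summed deposited value (log axis) of the tested members of 9 gene lists at 3, 7, 14, 24 and 42 h, as the mean over libraries with bars from the lowest to the highest library. Linker histones drop by 7 h, muscle lists climb to 24 h, and trypsin-type proteases lie higher at 14 h (380) than at 24 h (102); after median-ratio rescaling the myosin list was lower at 42 h than at 3 h in 46 of its 92 members and higher in 5.

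The authors selected every gene of the table for differing somewhere among these samples. A gene not called between the ends may differ between other stages, or between these ends under another scaling or test. Which of these holds was not tested. Of the 198 such genes, 174 had a middle stage above both ends, and 87 were highest at 14 h and 82 at 24 h. The vitellogenin match DN10000_c0_g1, a yolk protein precursor, averaged 2.06 ± 1.43 at 42 h and 0.996 ± 0.174 at 3 h (SD, n = 4 and 5), against 4.80 at 24 h. It was named after its values were seen, and its change of 0.52 (SE 0.27) was not called (limma adjusted p = 0.0762).

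The 42 h libraries differed among themselves more than the 3 h libraries did. The median SD of log2(value + 1) per gene was 0.604 at 42 h and 0.174 at 3 h, and it was larger at 42 h in 4331 genes (91%). Rank correlations over the 4761 genes, which are not independent of each other, ran from 0.680 to 0.830 between 42 h libraries, from 0.873 to 0.920 between 3 h libraries and from 0.075 to 0.419 across the groups. Among genes called higher, 42 h C was the highest of the 4 in 2387 and 42 h A the lowest in 1871. Among genes called lower, 42 h C was the lowest in 375 and 42 h A the highest in 330. Library 42 h C thus lay farthest from 3 h in both directions, and 42 h A nearest.

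Library 42 h D was left out because its profile is that of early eggs, and its values are given as a description. They had a rank correlation of 0.853 with the 3 h mean and of 0.326 with that of 42 h A, B, C and E. Of the genes called higher, it was below every other 42 h library in 3606 (95.1%), and of those called lower it was above every other 42 h library in 583 (75.5%). Against 3 h, it lay below every 3 h library in 595 of the genes called lower (77.1%) and also in 1303 of those called higher (34.4%), and above every 3 h library in 709 of those called higher (18.7%). Its values summed to 76493, below every 3 h library. The linker histones summed to 62.8 in 42 h D, against 1.19 to 28.1 in the other 42 h libraries and 500 to 637 at 3 h, whereas the cuticle proteins summed to 104 in 42 h D, against 853 to 3354 in the other 42 h libraries and 120 to 216 at 3 h. Whether its label or its content differs from that of the others was not tested.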

How the data were processed

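RNA-seq of pooled Acartia tonsa eggs was analysed from the table of subitaneous development. The authors deposited normalized signal values per gene of a de novo assembly, selected per the labels with a fold change of 2 and an alpha of 0.001 as thresholds. Of tools, bcl2fastq and edgeR stand in the submitters' processing notes. How reads were aligned, counted and scaled was not given in the sources used here. Within 0.1 of a step, 100% of the values up to 2000 reads were whole reads in each library.

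Genes with a value of 1 or more in at least 3 of 9 libraries were fitted on log2(value + 1) by group in limma 3.58.1 under R 4.3.3, with a robust, trended eBayes step. P-values are two-sided and Benjamini-Hochberg adjusted. Fold changes on this scale understate those of low genes. How many members passed the filter without any 3 h library at 1 was counted after the data were seen. Lists (37, one without members in the table) come from name patterns, with 51 wrong hits removed by name after values were seen. Members and lists were chosen with earlier results of these data known. Named genes were, beyond those said to be chosen after their values were seen, the 10 largest changes each way without overlap among genes with a match or domain, up to 3 called members and the member of highest mean per list, all members called in a direction with 3 or fewer such calls, and the 2 largest changes each way without either. Alternatives were median-ratio and quantile scaling, pseudocount 0.1, no filter, edgeR 4.0.16, DESeq2 1.42.0, a replicate block, a run term and libraries left out. The 2 sequencing runs were inferred from sheet numbers in the labels. The floor for genes at 0 was 3 reads per library and covers counting error only. The fit was tested on simulated data with few changed genes, as many up as down, and the same dispersion in both groups. That test does not cover the dependence on scaling or the wider spread at 42 h.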

Additional observations from a re-analysis of the deposited data

Results flagged for a closer look

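In 23 of the 286 groups of values tested over 143 named genes, 1 library lay far from the others of its group, where chance alone gives about 1 group in 20. Library 42 h C was that library 9 times and 3 h C 12 times. The groups come from the same 9 libraries, so these cases are not independent of each other and the chance rate is only a rough guide. Over all members, 3 h C also had the highest summed value of the 3 h libraries (121064, others 85328 to 102105).

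Library 42 h C was the lowest of its group for the EF-hand genes DN6341_c0_g1 (1.386, others 7.88 to 8.59) and DN2533_c0_g1 (5.056, others 18.2 to 20.6), the lectin DN3172_c1_g1 (1.872, others 4.99 to 5.38) and the cyclin B DN1814_c0_g1 (0.434, others 0.941 to 1.03). It was also lowest for the trypsin theta match DN7325_c0_g1 (0.031, others 0.142 to 0.159) and the kinase match DN5349_c0_g1 (0.434, others 0.721 to 0.749). It was the highest for the 7B2 match DN3962_c0_g1 (22.314, others 11.6 to 12.4), the MMP9 match DN4193_c0_g1 (6.483, others 1.65 to 2.16) and the ankyrin repeat gene DN102079_c0_g1 (134.444, others 69.7 to 76.4). For 8 of these 9 genes it stood on the side away from 3 h, and for DN4193_c0_g1 on the side of 3 h.

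Library 3 h C was the highest of its group for 7 genes of muscle or cytoskeleton, namely the myosin matches DN5896_c0_g1 (33.256, others 11.7 to 15.9), DN13715_c0_g1 (1.981, others 0.969 to 1.18) and DN288_c0_g3 (171.288, others 72.5 to 94.3), the light chain DN536_c0_g1 (10.928, others 5.63 to 6.85), the actin DN2111_c2_g1 (287.143, others 140 to 174) and the tubulins DN48728_c0_g2 (1.313, others 0.165 to 0.471) and DN908_c1_g1 (1.255, others 0 to 0.363). It was also highest for DN26390_c0_g1 (0.449, others 0.059 to 0.125), DN9335_c0_g1 (2.004, others 1.47 to 1.55), DN8447_c0_g1 (78.372, others 56.4 to 61.8), the ferritin DN8240_c0_g1 (9.074, others 4.89 to 5.85) and the TGFBI match DN6577_c0_g1 (3.052, others 1.35 to 1.73). Library 42 h A was highest for the transporter DN641_c0_g1 (4.126, others 3.18 to 3.32), and 42 h E for the small heat shock protein DN21453_c0_g1 (0.357, others 0.051 to 0.073).

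Library 42 h D, which the comparison does not use, lay above every 3 h library in 709 of the genes called higher (18.7%) and below every 3 h library in 1303 of them (34.4%).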

How the results depend on the processing

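Named genes that changed sign against a positive log2 change were, after median-ratio rescaling, at -0.35 (DN13614_c0_g1), -0.005 (DN3860_c0_g1), -0.38 (DN90193_c0_g1), -0.76 (DN4018_c0_g1), -0.28 (DN2111_c2_g1), -1.24 (DN439_c1_g1), -0.72 (DN18961_c0_g1), -0.55 (DN3843_c0_g1), -1.53 (DN8447_c0_g1), -0.10 (DN16682_c0_g1), -0.55 (DN3233_c0_g1), -0.081 (DN41117_c0_g1), -0.56 (DN5811_c0_g1). After quantile normalization they were at -0.34 (DN13614_c0_g1), -0.095 (DN3843_c0_g1), -0.094 (DN5811_c0_g1). By edgeR with TMM scaling they were at -0.88 (DN13614_c0_g1), -0.39 (DN90193_c0_g1), -0.46 (DN4018_c0_g1), -0.042 (DN2111_c2_g1), -1.39 (DN439_c1_g1), -0.81 (DN18961_c0_g1), -0.79 (DN3843_c0_g1), -1.48 (DN8447_c0_g1), -0.14 (DN16682_c0_g1), -0.55 (DN3233_c0_g1), -0.61 (DN5811_c0_g1). By DESeq2 they were at -1.02 (DN13614_c0_g1), -0.018 (DN3860_c0_g1), -0.53 (DN90193_c0_g1), -0.62 (DN4018_c0_g1), -0.19 (DN2111_c2_g1), -0.011 (DN3931_c0_g1), -1.51 (DN439_c1_g1), -0.95 (DN18961_c0_g1), -0.94 (DN3843_c0_g1), -1.59 (DN8447_c0_g1), -0.28 (DN16682_c0_g1), -0.058 (DN4715_c0_g1), -0.69 (DN3233_c0_g1), -0.051 (DN41117_c0_g1), -0.77 (DN5811_c0_g1). No other of the 143 named genes changed sign under any alternative.

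The number of genes called higher, 3791, became 1524 after median-ratio rescaling, 2107 after quantile normalization, 1251 by edgeR with TMM scaling, 1377 by DESeq2 and 7683 without the filter on low values, which tests more genes. The number called lower, 772, became 1196 by DESeq2. Both stayed within 1.5 times under the other alternatives, including pseudocount 0.1, a run term, 3 h and 42 h libraries weighted per group, and edgeR on the recovered reads with the deposited scaling, added after the data were seen (3786 and 733). Leaving out 1 library at a time gave 3747 to 3781 higher and 759 to 785 lower and ended the call of no named gene. Deviations of same-lettered libraries had correlations from -0.04 to 0.14, within the range for different letters (-0.27 to 0.30). So few values cannot settle whether letters pair the libraries. A replicate block gave 3769 higher and 764 lower. Within letters A and B 2880 were higher and 653 lower, and within C, D and E 3663 and 770. The cause of the dependence on scaling was not tested. Low genes are limited by depth, since a value of 0.01 is about 1 read.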
